A study of Mus musculus with 14 samples.

Results

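The genes described here are 5 members of the cellular zinc system: the metallothioneins Mt1, Mt2 and Mt3, the metal-sensing transcription factor Mtf1, and the zinc exporter Slc30a1. They were taken by gene name out of 53700 genes in the deposited tables, and no threshold on measured values entered the rule. All 5 passed the filter on low counts in both comparisons, while Mt4, the remaining mouse metallothionein gene, had no count in any library. Poly-A RNA was sequenced from adult neural stem and progenitor cells (NSPCs, cells that divide and give rise to neurons and glia) of C57BL/6 mice, in 14 libraries of 4 groups. The quiescent group was NSPCs treated with BMP4, a growth factor that takes these cells out of the cell cycle (4 libraries). The proliferating group was given the mitogens FGF and EGF (4 libraries). The GFP control group received a GFP adeno-associated virus and was kept in FGF and EGF (3 libraries). The Yme1l KO group received a Cre-GFP adeno-associated virus (written Cr-GFPe in the sample titles), also in FGF and EGF (3 libraries). The virus is taken here as given to delete Yme1l1, which encodes a protease of the mitochondrial inner membrane. The labels call the animals of all 4 groups wild-type and give neither the floxed allele nor an age beyond adult. Whether replicates were separate animals or cultures is not stated, so each p-value reflects how far these libraries scatter, and that scatter could be technical alone.

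Metallothioneins are very small proteins whose cysteines hold zinc and copper ions in clusters. Mtf1 encodes MTF-1, which binds DNA when free zinc rises and switches on Mt1, Mt2 and Slc30a1 through short metal response elements in their promoters. Slc30a1 encodes ZnT1, the transporter that moves zinc out across the plasma membrane. Mt1 and Mt2 respond to metals, glucocorticoids and stress in most tissues and in the brain are abundant in astrocytes. Mt3 is largely a nervous-system gene and responds little to metals.

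The 3 metallothionein genes lie side by side on the plus strand of chromosome 8, and the deposited tables place them in GRCm39. Mt3 (ENSMUSG00000031760) spans chr8:94879235-94880774, Mt2 (ENSMUSG00000031762) spans chr8:94899292-94900196 and Mt1 (ENSMUSG00000031765) spans chr8:94905710-94906955. Mtf1 (ENSMUSG00000028890) spans chr4:124695897-124743593 and Slc30a1 (ENSMUSG00000037434) spans chr1:191638879-191645359. The coding sequences of the main metallothionein transcripts are shown because the genes are close copies, and the copying bears on whether reads can be assigned to one gene. They come from GENCODE transcripts of the GRCm38 build, each from 3 exons, with cysteine codons in capitals.
Mt1: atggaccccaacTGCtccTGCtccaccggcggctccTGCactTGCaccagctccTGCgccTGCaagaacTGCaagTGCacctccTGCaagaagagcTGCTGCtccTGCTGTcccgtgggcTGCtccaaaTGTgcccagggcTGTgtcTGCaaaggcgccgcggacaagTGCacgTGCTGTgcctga
Mt2: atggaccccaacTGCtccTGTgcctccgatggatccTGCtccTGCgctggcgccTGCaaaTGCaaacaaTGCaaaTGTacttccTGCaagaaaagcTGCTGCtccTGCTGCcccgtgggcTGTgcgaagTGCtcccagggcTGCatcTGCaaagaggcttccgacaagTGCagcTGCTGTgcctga
Mt3: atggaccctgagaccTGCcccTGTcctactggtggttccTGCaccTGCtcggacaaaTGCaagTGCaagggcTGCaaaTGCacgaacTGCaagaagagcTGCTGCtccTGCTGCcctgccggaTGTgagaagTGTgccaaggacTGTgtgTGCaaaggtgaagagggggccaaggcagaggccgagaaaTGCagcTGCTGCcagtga
Mt1 and Mt2 coding sequences are 186 bases (61 codons before the stop), and that of Mt3 is 207 bases (68 codons). Each has 20 cysteine codons. Mt3 has 11 lysine codons, against 7 in Mt1 and 8 in Mt2, and its alignments to them left 29 and 27 columns with a gap. Mt1 and Mt2 were 79.6% identical over the aligned coding bases, Mt1 and Mt3 67.3%, and Mt2 and Mt3 68.6%. At the length of a read's exact match the genes were nevertheless distinct. None of the 31-base words in the annotated transcripts of Mt1, Mt3, Mtf1 or Slc30a1 occurred in another gene. Mt2 shared 3 of 573 such words (0.524%) with Pip5k1a and none with another metallothionein.

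The 250 bases before the RefSeq start of the metallothionein genes and of Slc30a1 (GRCm38.p6, plus strand) are shown because Mt1, Mt2 and Slc30a1 are textbook targets of MTF-1, and Mt3 is their neighbour that responds little to metals. Capitals mark the metal response core, TGCACNC or TGCGCNC on either strand.
Mt1, chr8:94178839-94179088: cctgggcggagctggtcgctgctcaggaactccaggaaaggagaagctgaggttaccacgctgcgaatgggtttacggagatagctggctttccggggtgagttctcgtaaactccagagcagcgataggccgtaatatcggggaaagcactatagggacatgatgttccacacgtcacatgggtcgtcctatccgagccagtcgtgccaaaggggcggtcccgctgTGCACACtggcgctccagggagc
Mt2, chr8:94172368-94172617: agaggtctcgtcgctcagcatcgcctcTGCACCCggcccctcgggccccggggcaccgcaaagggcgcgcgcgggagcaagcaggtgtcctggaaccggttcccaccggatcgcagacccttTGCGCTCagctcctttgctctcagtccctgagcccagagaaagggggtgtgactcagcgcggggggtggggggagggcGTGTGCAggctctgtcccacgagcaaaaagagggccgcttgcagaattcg
Mt3, chr8:94152357-94152606: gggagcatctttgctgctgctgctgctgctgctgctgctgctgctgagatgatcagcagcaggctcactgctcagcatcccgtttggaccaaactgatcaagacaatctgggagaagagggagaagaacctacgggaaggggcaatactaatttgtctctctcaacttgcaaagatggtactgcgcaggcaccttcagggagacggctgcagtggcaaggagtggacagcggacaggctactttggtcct
Slc30a1, chr1:191906531-191906780: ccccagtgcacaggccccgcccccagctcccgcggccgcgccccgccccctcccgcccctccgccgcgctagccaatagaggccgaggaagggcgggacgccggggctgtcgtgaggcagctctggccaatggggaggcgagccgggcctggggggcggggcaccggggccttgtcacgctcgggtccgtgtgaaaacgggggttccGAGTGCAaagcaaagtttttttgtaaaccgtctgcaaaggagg
In the full window of 300 bases, which adds 50 bases after the start, Mt2 held 4 cores, Mt1 held 3, Slc30a1 held 2, Mt3 held 1 and Mtf1 held 0. Of all 32851 RefSeq promoter windows of this length, 25.7% held at least 1 core, 7.11% at least 2, 1.97% at least 3 and 0.517% at least 4. The Mt2 cores began 223, 128 and 50 bases before the start and 5 bases after it, the last pair on the minus strand. One Mt1 core began 23 bases before the start, and the others 3 and 21 bases after it. The RefSeq start lay 222 bases before the coding sequence in Mt1, 230 in Mt2 and 193 in Mt3. The window ended 50 bases after the start, so the rest of that stretch was not searched. The counts are those of the window, not of a whole promoter. The antioxidant response core, TGACNNNGC on either strand, occurred in 12.4% of windows, among them those of Mt2 and Slc30a1 (1 match each, none overlapping a metal response core). A match is a description of the letters, not evidence of binding.

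Library totals were 6475099 to 8992709 estimated counts in the quiescent and proliferating libraries and 9053124 to 10320736 in the GFP and KO libraries. Yme1l1 itself was at 135, 124 and 121 CPM (counts scaled to a common TMM-adjusted library size) in the GFP libraries and at 25.7, 25.6 and 22.9 CPM in the KO libraries, a log2 fold change of -2.36. Neural stem and progenitor markers summed to 3883 to 4141 CPM in proliferating and 3405 to 3757 CPM in quiescent libraries. They summed to 4339 to 4464 CPM in GFP and 3293 to 3650 CPM in KO libraries. Microglia markers summed to 1.72 to 10.7 CPM, with Cx3cr1, Ptprc and C1qa at 0 counts throughout. Other genes of that list were not at 0 (named after their values were seen). Mean Tmem119 was 0.105 CPM in proliferating and 4.06 CPM in quiescent cells, and mean Trem2 was 0 and 1.83 CPM. Mean P2ry12 was 3.14 CPM in GFP and 4.46 CPM in KO cells. Neuroblast markers summed to 17.2 to 26.1 CPM in the quiescent and proliferating libraries, 31.8 to 32.7 CPM in GFP and 48.1 to 54.5 CPM in KO libraries, where Gad1 rose from 13.4 ± 0.996 to 30.5 ± 1.599 CPM (SD, n = 3). Dlx5 and Stmn2, of the same list, were at 0 counts throughout. Mean Dlx2 rose from 1.49 CPM in proliferating to 8.15 CPM in quiescent cells (named after its value was seen). Between the same groups Tubb3 fell from 13.8 to 7.29 CPM and Gad1 from 2.87 to 0.895 CPM. Quiescent replicate 2 was the lowest of its group on a measure of transcript length. Its genes with a main transcript under 1000 bases minus those of 5000 bases or more deviated from the table's mean by a median log2 difference of -0.51, against -0.04, -0.12 and -0.16 in the other quiescent libraries. Its gap to the nearest library was 0.743 of the group's range, which does not pass Dixon's test for 4 values. The proliferating libraries lay between 0.01 and 0.31 on this measure, the GFP libraries between 0.06 and 0.13, and the KO libraries between -0.09 and -0.05. Metallothionein values in quiescence are therefore given with and without it.

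Metallothionein mRNA was abundant in every group, and its make-up differed between the tables. Levels of different genes are compared here as TPM, which divides by transcript length. In proliferating cells mean TPM was 3568 ± 69.2 for Mt3, 1526 ± 71.7 for Mt1 and 591 ± 50.7 for Mt2 (SD, n = 4). Mt3 ranked 19th of 12245 tested genes there, Mt1 94th and Mt2 272nd. In quiescent cells Mt3 stood at 4272 ± 217 TPM, Mt1 at 1728 ± 106 and Mt2 at 1095 ± 104 (SD, n = 4). The order was thus Mt3, Mt1, Mt2 in both groups, and no library of one gene overlapped its neighbour in the order. In GFP control cells Mt1 led with 495 ± 10.4 TPM, ahead of Mt3 at 358 ± 24.6 and Mt2 at 147 ± 11.4 (SD, n = 3). The KO cells had the same order, with Mt1 at 703 ± 113 TPM, Mt3 at 393 ± 31.6 and Mt2 at 198 ± 49.8 (SD, n = 3), again without overlap. Of 12625 tested genes, Mt1 ranked 280th, Mt3 394th and Mt2 1072nd in GFP cells. The ranks in KO cells were 189th, 352nd and 702nd.

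The mRNAs of the sensor and the exporter were far less abundant than those of the metallothioneins. Mtf1 stood at 7.64 ± 2.07 TPM in proliferating and 5.58 ± 2.08 TPM in quiescent cells (SD, n = 4), and at 13.9 ± 3.31 TPM in GFP and 13.8 ± 1.67 TPM in KO cells (SD, n = 3). Slc30a1 stood at 4.93 ± 0.291, 5.002 ± 0.530, 13.0 ± 1.34 and 14.6 ± 0.552 TPM in the same 4 groups. Mtf1 lay above Slc30a1 in every proliferating library, while in the other 3 groups their libraries overlapped. In proliferating cells the step from Mt2 down to Mtf1 was 77.4-fold in mean TPM, and in GFP cells it was 10.5-fold.

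Summed over Mt1, Mt2 and Mt3, metallothionein mRNA came to 5684 ± 132 TPM in proliferating and 7095 ± 414 TPM in quiescent cells (SD, n = 4). Mt3 made up 62.8% ± 1.47 of that sum in proliferating and 60.2% ± 0.772 in quiescent cells. The share of Mt2 was 10.4% ± 0.709 in proliferating cells, between 9.53% and 11.1%, and 15.4% ± 0.658 in quiescent cells, between 14.6% and 16.2% (SD, n = 4). The ratio of Mt2 to Mt1, which does not depend on how the libraries are scaled to each other, was 0.368, 0.381, 0.402 and 0.397 in proliferating replicates 1, 2, 4 and 5. In quiescent replicates 1 to 4 it was 0.623, 0.595, 0.655 and 0.657, so all quiescent libraries lay above all proliferating ones. In the GFP and KO libraries the sum was lower, at 1001 ± 34.7 and 1293 ± 185 TPM (SD, n = 3), and Mt1 made up the largest share, 49.5% ± 1.12 and 54.3% ± 1.67. There the ratio of Mt2 to Mt1 was 0.297 ± 0.0268 in GFP and 0.279 ± 0.0260 in KO cells, and the libraries of the 2 groups overlapped.

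**Figure D1:**
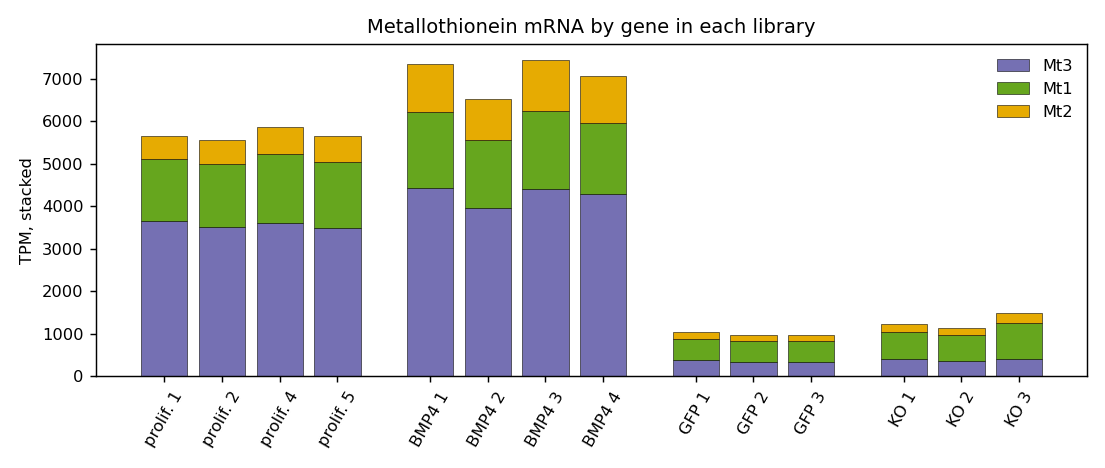
Stacked bars give the TPM of Mt3, Mt1 and Mt2 in each of the 14 libraries, with the 2 separately quantified tables side by side. The sum lies between 5559 and 7444 TPM in the proliferating and quiescent libraries and between 979 and 1500 TPM in the GFP and KO libraries, and Mt3 is the largest part of the former and Mt1 of the latter.

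The first comparison asks how quiescent NSPCs differ from proliferating ones. All 3 expressed metallothioneins rose in BMP4-treated cells, Mt2 by 1.82-fold and Mt3 and Mt1 by less than 1.2-fold, while Mtf1 and Slc30a1 did not pass the test. By edgeR's quasi-likelihood test with Benjamini-Hochberg adjustment over 12245 genes, 29.9% of all genes tested were called higher and 35.5% lower at an adjusted p under 0.05, 65.4% in either direction. A call is therefore the commoner outcome for a gene in this comparison, and the count of 3 of 5 members called is close to that background. The median log2 fold change of the 5 members was 0.17, against -0.01 over all genes tested. In bulk RNA a change in the cells' make-up and a change in RNA per cell cannot be told apart.

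Mt2, one of the pair of stress- and metal-responsive metallothioneins, was at 105, 112, 130 and 122 CPM in proliferating replicates 1, 2, 4 and 5. It was at 224, 181, 233 and 217 CPM in quiescent replicates 1 to 4. Every quiescent library lay above every proliferating one, and replicate 2 was the lowest of the quiescent group. The log2 fold change came to 0.87 (SE 0.09, adjusted p = 4.43e-06), and it was 1.03 without quiescent replicate 2. Non-overlap is itself common here: 59.7% of the genes tested had groups that did not overlap.

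Mt3, the nervous-system metallothionein, was at 758, 748, 766 and 741 CPM in the proliferating libraries. In the quiescent libraries it was at 955, 802, 911 and 902 CPM. The groups did not overlap, although the gap between the lowest quiescent and the highest proliferating library was small. On the log2 scale the fold change was 0.24 (SE 0.05, adjusted p = 0.000361). Without quiescent replicate 2, its lowest quiescent library, the value was 0.38.

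Mt1 was at 320, 329, 362 and 344 CPM in the proliferating libraries and at 405, 343, 402 and 371 CPM in the quiescent libraries. The groups overlapped, since quiescent replicate 2 lay below proliferating replicates 4 and 5. Its log2 fold change came to 0.17 (SE 0.06, adjusted p = 0.0167). This call was less secure than those of Mt2 and Mt3. With libraries scaled by their totals alone it was 0.03 (adjusted p = 0.641), and without proliferating replicate 1 or 2 the adjusted p was 0.0622 or 0.0571. Without quiescent replicate 2 the value was 0.30 (adjusted p = 6.52e-06).

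Mtf1, the sensor, was at 17.9, 16.8, 16.9 and 16.2 CPM in proliferating and at 16.0, 19.6, 13.7 and 16.5 CPM in quiescent libraries, and the quiescent values enclosed the others. On the log2 scale the fold change was -0.04 (SE 0.12, adjusted p = 0.796). Slc30a1, the exporter, was at 14.97, 14.02, 15.2 and 16.1 CPM in proliferating and at 14.7, 15.1, 17.1 and 13.7 CPM in quiescent libraries. Its groups overlapped fully, with a log2 fold change of 0.01 (SE 0.11, adjusted p = 0.972). Each had only 84 to 170 estimated counts per library, so a change of the size seen for Mt1 or Mt3 would lie within about 2 of these standard errors.

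**Figure D2:**
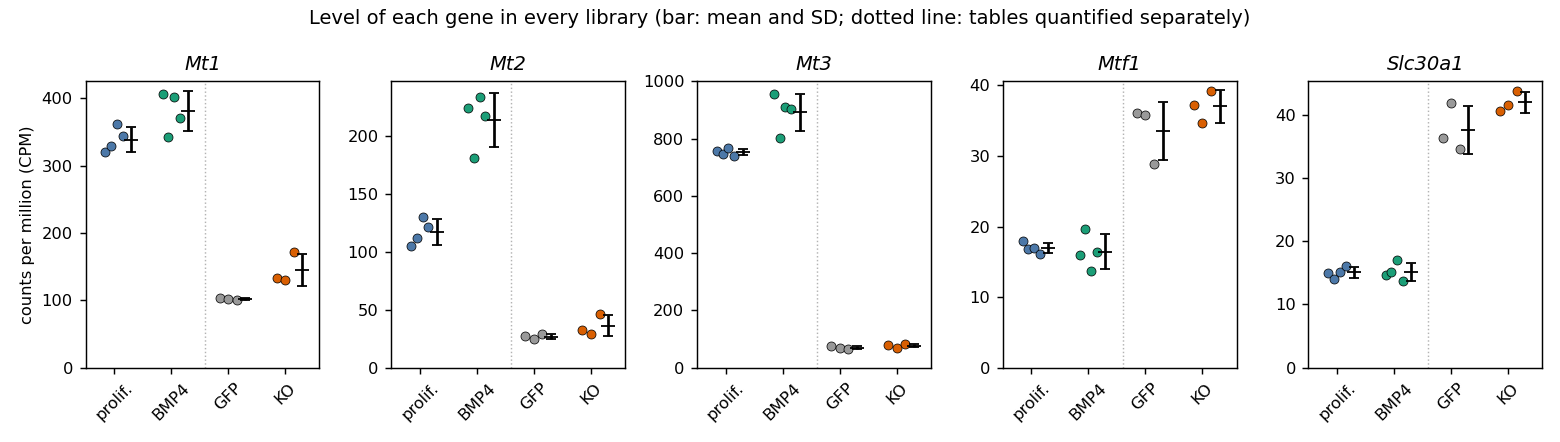
Each panel plots the level of 1 gene in CPM, with a point for every library of the 4 groups and the group's mean and SD beside it. The dotted line separates the 2 tables that were quantified separately. The Mt2 points of the quiescent group (181 to 233 CPM) sit above all proliferating ones (105 to 130 CPM), and the Mt1 points of the KO group (130 to 172 CPM) above all GFP ones (99.8 to 103 CPM).

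The second comparison asks how cells given Cre-GFP virus to delete Yme1l differ from cells given GFP virus. Of the 5 members only Mt1 was called, higher in the KO, and Mt2, at a similar value, missed the threshold. Of 12625 genes tested, 25.4% were called higher and 26.2% lower, 51.6% in either direction, so 1 of 5 members called is below the background. The median log2 fold change of the 5 members was 0.16, against 0.00 over all genes tested.

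Mt1 was at 103, 102 and 99.8 CPM in the GFP libraries and at 132, 130 and 172 CPM in the KO libraries. The GFP values were tight and all lay below the KO values, of which replicate 3 was the highest. Its log2 fold change came to 0.51 (SE 0.10, adjusted p = 0.00211). Without KO replicate 3 it was 0.37 (adjusted p = 6.77e-10). In this comparison the groups of 61.4% of genes tested did not overlap.

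Mt2 was at 27.2, 24.5 and 28.8 CPM in GFP libraries and at 32.7, 29.4 and 46.6 CPM in KO libraries. The groups did not overlap, but the lowest KO library lay within 1 CPM of the highest GFP library. Its log2 fold change came to 0.43 (SE 0.17, adjusted p = 0.0606). Without KO replicate 3, again the highest, it was 0.21 (adjusted p = 0.0533). Without KO replicate 2 it was 0.56 (adjusted p = 0.00701), and with the DESeq2 test on all 6 libraries it was 0.43 (adjusted p = 0.0117).

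Mt3 was at 75.2, 68.0 and 66.3 CPM in GFP and at 79.2, 70.3 and 81.4 CPM in KO libraries, with overlap. Its log2 fold change was 0.14 (SE 0.07, adjusted p = 0.112). Mtf1 was at 36.1, 35.8 and 28.8 CPM in GFP and at 37.2, 34.6 and 39.3 CPM in KO libraries. Its groups overlapped as well, and the fold change on the log2 scale was 0.14 (SE 0.09, adjusted p = 0.224). Slc30a1 was at 36.2, 41.8 and 34.6 CPM in GFP and at 40.6, 41.5 and 43.8 CPM in KO libraries. GFP replicate 2 lay within the range of the KO group, and the fold change on the log2 scale was 0.16 (SE 0.08, adjusted p = 0.116). Without that library Slc30a1 stood at 0.24 (adjusted p = 0.0363).

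Whether a member responded differently to the loss of Yme1l than to BMP4 was tested as the difference of both effects in a fit of all 14 libraries (13580 genes tested, of which 38.9% were called). None of the 5 members was called. The KO effect minus the quiescence effect was 0.29 for Mt1 (SE 0.12, adjusted p = 0.0656) and -0.49 for Mt2 (SE 0.20, adjusted p = 0.0703) on the log2 scale. It was -0.16 for Mt3, 0.13 for Mtf1 and 0.11 for Slc30a1, with adjusted p of 0.213, 0.550 and 0.572. The values for Mt1 and Mt2 had opposite signs and both lay close to the threshold. With RLE size factors Mt2 passed it (-0.59, adjusted p = 0.0313), and with library size alone Mt1 did (0.44, adjusted p = 0.00378). That Mt2 was called in one comparison and not in the other is therefore not a shown difference between them.

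**Figure D3:**
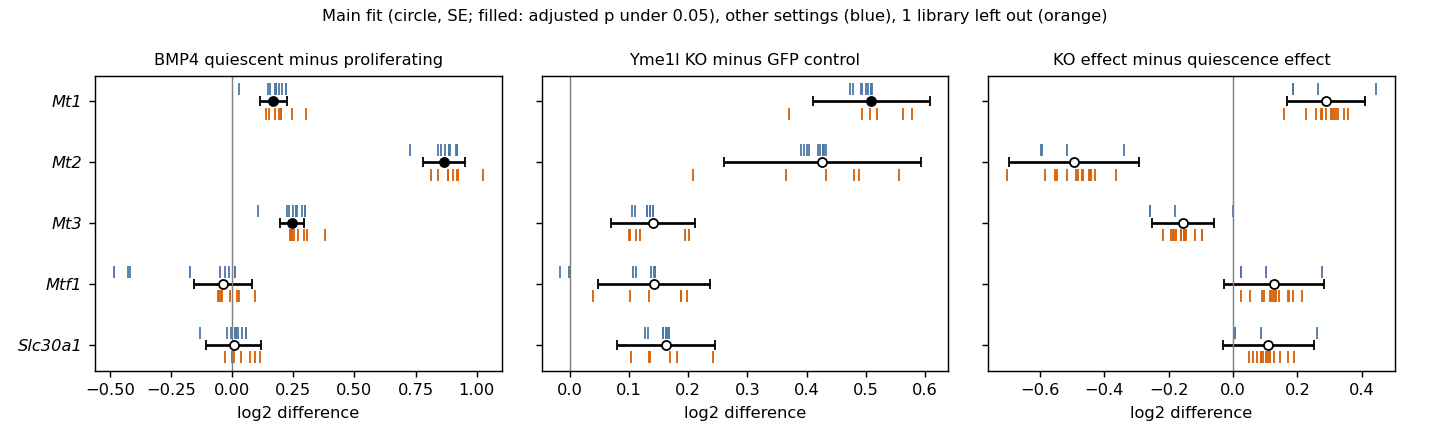
Circles give the log2 fold change (with SE) of each member in quiescence, in the KO, and as the difference of both effects, filled where the adjusted p was under 0.05. Blue ticks are other settings and orange ticks are fits with 1 library left out. The 3 metallothioneins lie above 0 in the first 2 panels under every setting drawn, and no circle of the third panel is filled.

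Levels also differed between the tables, which were quantified separately, so these values are set side by side with no test. Mean CPM in proliferating cells was higher than in GFP control cells by 10.7-fold for Mt3, 4.30-fold for Mt2 and 3.32-fold for Mt1. It was lower by 1.95-fold for Mtf1 and by 2.44-fold for Slc30a1. Both groups were kept in FGF and EGF, and the virus, the culture and the library preparation cannot be told apart here. Yme1l1 itself was at a mean of 3.49 CPM in proliferating and 127 CPM in GFP cells. Transcript length moved with this contrast over all genes. Among 844 genes whose main transcript was under 1000 bases the median log2 ratio of proliferating to GFP was 0.47, and among 2282 genes of 5000 bases or more it was -1.15. The main transcripts of the metallothioneins measure 511 to 549 bases, those of Mtf1 and Slc30a1 7554 and 5244 bases. Against the 844 short genes, whose quartiles were -0.06 and 0.85, the metallothioneins at 1.73 (Mt1), 2.10 (Mt2) and 3.42 (Mt3) lay above the upper quartile. Mtf1 at -0.97 and Slc30a1 at -1.29 lay inside the quartiles of the long genes, -2.97 and 0.22.

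**Figure D4:**
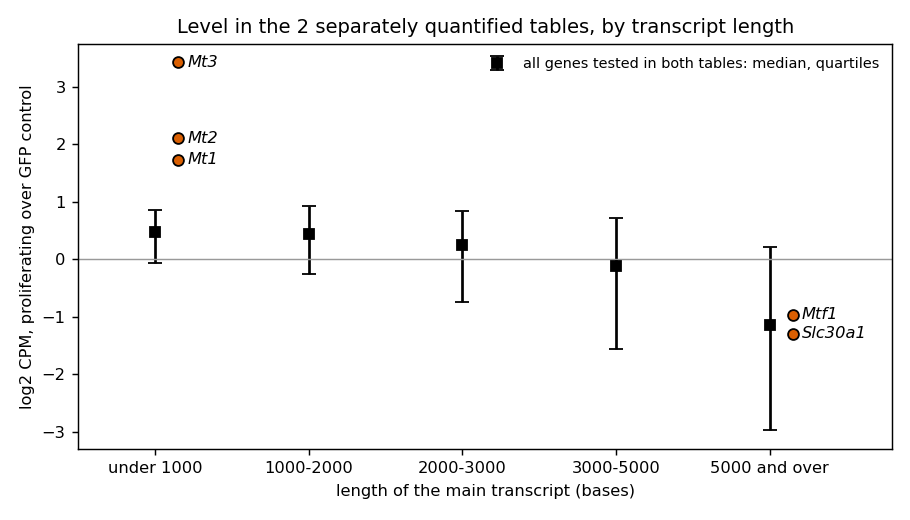
Squares give the median log2 ratio of mean CPM in proliferating over GFP control cells for genes grouped by the length of their main transcript in bases, with bars for the quartiles, and circles give the 5 members. The medians go from 0.47 in the shortest group to -1.15 in the longest, with Mt1, Mt2 and Mt3 above the quartile bar of theirs and Mtf1 and Slc30a1 within it.

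The same measure moved, less far, with the tested contrasts. In quiescence the median log2 fold change was -0.21 for genes with main transcripts under 1000 bases and 0.24 for those of 5000 bases or more, and in the KO it was -0.10 and 0.06. The main transcripts of Mt1, Mt2 and Mt3 fall in the shortest of these groups and those of Mtf1 and Slc30a1 in the longest. The part of transcript length in the values of the 5 members was not tested.

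Nearly all metallothionein counts came from 1 transcript per gene. Mt1-201 took 97.9% to 98.8% of its gene's counts, as group means,, and Mt2-201 took 100% in 3 groups and 99.97% in quiescent cells. Mt3-201 took 97.8% ± 0.328 in proliferating and 98.5% ± 0.0746 in quiescent cells (SD, n = 4). All counts of Slc30a1 in the first table were assigned to Slc30a1-201. Mtf1 was less settled: Mtf1-202 took 95.5% ± 5.17 in quiescent cells (SD, n = 4), but 1 proliferating library had 94.1% on the longer Mtf1-201 and none on Mtf1-202. Mtf1-204, a retained-intron transcript of 781 bases, took 3.75% to 12.4% in the proliferating libraries. In that group the TPM of Mtf1 ranged from 5.63 to 9.46 and its CPM from 16.2 to 17.9.

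Zinc transporters were counted by family. Of all genes tested, 29.9% were called higher and 35.5% lower in quiescence, and 25.4% and 26.2% in the KO. Calls in both directions were thus common in any case. Of 7 zinc exporters of the Slc30a family tested in quiescence, Slc30a1 included, 3 rose and 1 fell, with a median log2 fold change of 0.17. Slc30a5, which loads zinc into the secretory pathway, rose from 38.0 ± 5.28 to 56.0 ± 5.47 CPM (SD, n = 4), a log2 fold change of 0.57 (adjusted p = 0.000126). Slc30a4, a vesicle transporter, and Slc30a7, of the Golgi, rose by 1.17 and 0.31 on the log2 scale, and Slc30a10, better known for exporting manganese, fell by 1.17. Slc30a4 and Slc30a10 were at mean levels under 6 CPM in both groups. The calls of Slc30a4, Slc30a7 and Slc30a10 were lost under 2 of 17, 8 of 18 and 6 of 17 alternatives. In the KO, 1 of 6 exporters was called: Slc30a9, a mitochondrial transporter, at 85.4 ± 2.07 CPM in GFP and 102 ± 1.67 CPM in KO cells (SD, n = 3), a log2 fold change of 0.26 (adjusted p = 0.000903). With TPM in place of counts the adjusted p of Slc30a9 reached 0.396.

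Of 10 zinc importers of the Slc39a family tested in quiescence, 4 rose and 3 fell, and the median was 0.06. Beside them, 29.9% of all genes tested were called higher and 35.5% lower. Slc39a12, an importer known from brain, rose most, from 27.6 ± 4.01 to 60.9 ± 3.93 CPM (SD, n = 4; log2 fold change 1.14, adjusted p = 2.42e-08). Slc39a11 rose by 0.83, Slc39a13 by 0.40 and Slc39a1 by 0.11 on the log2 scale, and the call of Slc39a1 was lost under 6 of 18 alternatives and its sign turned under 1 more, scaling by totals alone (-0.03). Slc39a3 fell by 0.30 and Slc39a14, which also carries iron and manganese, by 0.35. Slc39a9 fell by 0.19, a call lost under 11 of 18 alternatives. In the KO, 3 of 10 importers rose and 1 fell, with a median of 0.12, beside 25.4% and 26.2% of all genes tested. Slc39a13 rose by 0.52 (adjusted p = 0.000808), Slc39a11 by 0.42 (adjusted p = 0.0221) and Slc39a12 by 0.34 (adjusted p = 0.00652) on the log2 scale, all 3 also called higher in quiescence. The call of Slc39a11 in the KO was lost under 8 of 16 alternatives. Slc39a10 was at 153 ± 8.43 CPM in GFP and 122 ± 3.80 CPM in KO cells (SD, n = 3), and fell by 0.32 (adjusted p = 0.00021). Without quiescent replicate 2 the quiescence counts of importers were 5 higher and 2 lower, and without KO replicate 3 the KO counts were 2 higher and 1 lower.

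**Figure D5:**
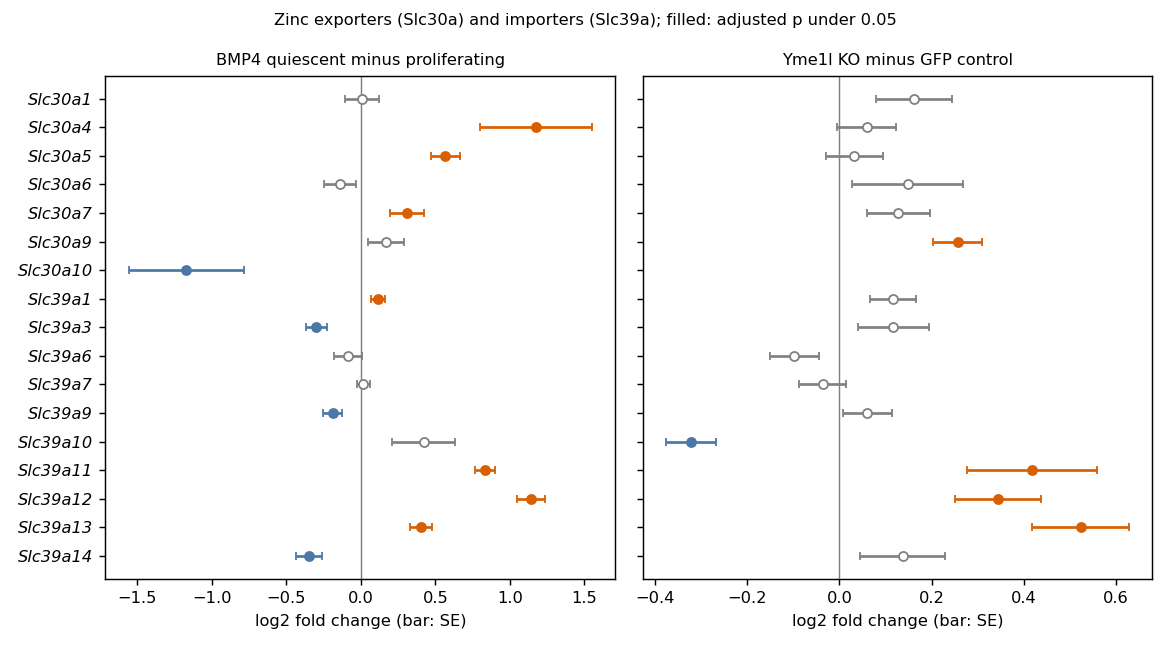
Points give the log2 fold change, with SE, of every zinc exporter (Slc30a) and importer (Slc39a) tested, in quiescence on the left and in the KO on the right, filled where the adjusted p was under 0.05. Slc39a11, Slc39a12 and Slc39a13 are filled on the higher side in both panels, and Slc30a1 is open in both.

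Other genes reported to respond to MTF-1 had calls in both directions. The list was not split into genes that MTF-1 raises and genes that it lowers. Its counts and medians therefore do not give the direction of an MTF-1 response. Of all genes tested, 29.9% were called higher and 35.5% lower in quiescence, and 25.4% and 26.2% in the KO. In quiescence 4 of 6 tested rose and 1 fell, with a median log2 fold change of 1.07. Ndrg1, a stress-responsive gene also induced by hypoxia, rose from 3.72 ± 0.597 to 58.8 ± 5.21 CPM (SD, n = 4), by 3.97 on the log2 scale. Gclc, which encodes the catalytic subunit of the first enzyme of glutathione synthesis, rose by 1.298, and Pgf, a growth factor gene, by 1.17. Selenoh, a selenoprotein gene that MTF-1 is reported to regulate, fell by 1.86. In the KO 1 of 6 rose and 2 fell, with a median of -0.22: Selenoh fell by 0.86 (adjusted p = 7.55e-05), Slc39a10 is given above, and the gene that rose was Ndrg1 (1.15, below 5 CPM in both groups, named after its value was seen).

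Metallothioneins also bind copper, so copper genes were counted. Of 16 tested in quiescence 5 rose and 3 fell (median 0.05), beside 29.9% of all genes tested called higher and 35.5% lower. The copper chaperone Atox1 rose by 0.65 and the cytosolic superoxide dismutase Sod1 by 0.43, while the copper pump Atp7b fell by 0.91 and the mitochondrial copper chaperone Sco1 by 0.84. Of 15 tested in the KO 4 rose and 2 fell (median 0.06), or 3 and 1 without KO replicate 3. Beside them, 25.4% of all genes tested were called higher in the KO and 26.2% lower. Cp, the copper-carrying ferroxidase ceruloplasmin, rose by 0.72 and Ccs, the chaperone that loads Sod1, by 0.45, and Commd1 fell by 0.34. Sco1 was at -0.29 (adjusted p = 0.0342), a call that was lost under 9 of 16 alternatives.

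Of 14 iron genes tested, 5 were higher and 3 lower in each comparison (median 0.22 in quiescence and 0.01 in the KO). Of all genes tested, 29.9% were called higher and 35.5% lower in quiescence, and 25.4% and 26.2% in the KO. Hmox1, the heme oxygenase gene, rose by 0.70 in quiescence and by 0.55 in the KO. The ferritin light chain Ftl1 rose by 0.73 in quiescence and by 0.32 in the KO, and the ferritin heavy chain Fth1 by 0.64 and 0.71. The mitochondrial iron importer Slc25a37 fell by 0.72 in quiescence and by 0.42 in the KO. Tfrc, the transferrin receptor, fell by 0.83 in the KO, from 230 ± 13.0 to 129 ± 14.1 CPM (SD, n = 3). Because Mt1 and Mt2 are also glucocorticoid targets, genes of that response were counted: 7 of 10 rose and 1 fell in quiescence (median 1.13), and 5 of 9 rose and 2 fell in the KO (median 0.52). These counts stand beside the same shares of all genes tested as the iron genes. In quiescence Pdk4 rose by 2.11, Nr3c1 by 1.93 and Sgk1 by 1.5998, and Sgk1 was at -0.27 in the KO (adjusted p = 0.0316). Klf9 rose by 0.61 in the KO. Fkbp5, a gene that glucocorticoids induce in most cells, fell by 2.07 in quiescence and by 0.46 in the KO. The part of glucocorticoid signalling in the metallothionein values was not tested.

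Astrocyte markers were counted because Mt1 and Mt2 are abundant in that cell type. In quiescence 10 of 14 tested rose and 3 fell (median 0.85), beside 29.9% of all genes tested called higher and 35.5% lower. In the KO 8 of 13 rose and 2 fell (median 0.31), beside 25.4% and 26.2% of all genes tested. Sparcl1 rose by 5.60, Gfap by 2.78 and S100b by 2.54 on the log2 scale in quiescence, while Fgfr3 fell by 0.95, Aldh1l1 by 0.64 and Glul by 0.28 (the fallers were named after their values were seen). Apoe rose by 1.18 and S100b by 0.60 in the KO, where Aldoc fell by 0.90. Summed over 15 markers, 0 of them without a count, the level was 8183 to 8452 CPM in proliferating, 10122 to 10740 in quiescent, 4012 to 4089 in GFP and 5004 to 5538 CPM in KO libraries. The part of these markers in the metallothionein values was not tested.

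Over the 14 libraries, after each table's mean was subtracted, the genes most like each member were ranked among 9143 genes by Pearson's r. This is a description: the points share library, depth and group, and no test was made. The closest to Mt1 was Tmem176b (r = 0.977), followed by Sh3glb2, Retreg3, Cd63 and Ypel3. The closest to Mt2 was Lrig1 (r = 0.978), followed by Slc2a1, Hepacam, Oaz2 and Cdkn2b. For Mt3 it was Selenow (r = 0.930), followed by Cog7, Ntn3, Atox1 and Gaa. For Slc30a1 it was Mafk (r = 0.838), followed by Nod1, Dcaf5, Ttc7b and Saysd1. The metallothioneins were not one another's nearest genes: Mt2 ranked 889th for Mt1 (r = 0.731), and Mt1 ranked 1763rd for Mt2. The closest pair was Mt2 and Mt3 (r = 0.883), with Mt2 37th among the genes ranked for Mt3 and Mt3 565th among those ranked for Mt2. Mtf1 had r = 0.17 with Mt1, -0.12 with Mt2 and 0.00 with Mt3.

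In the authors' deposited table, where the quiescence contrast is written as proliferating over quiescent, Mt2 had a log2 fold change of -0.93 (adjusted p = 7.36e-19), Mt3 of -0.31 (adjusted p = 1.05e-05) and Mt1 of -0.22 (adjusted p = 0.00789). For the KO over GFP the authors' deposited table gave 0.47 for Mt1 (adjusted p = 4.57e-05) and 0.35 for Mt2 (adjusted p = 0.0522). In the authors' deposited table Mtf1 and Slc30a1 had adjusted p above 0.2 in both contrasts.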

How the data were processed

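Per the labels' protocols, RNA was isolated with TRIzol and made into stranded poly-A libraries. The authors deposited salmon estimated counts per gene and TPM in a separate table for each pair of groups, with GRCm39 as the build per the submitters' processing notes. The deposited test tables hold the authors' log2 fold changes, standard errors and adjusted p-values (DESeq2 1.30.1 in R 4.0.3, per the same notes). Their mean signal per gene, also deposited by the authors, was not used. The columns of 2 proliferating libraries were tied to their labelled replicates, 4 and 5, by the library identifier in the deposited sample sheet.

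Estimated counts were rounded (6.13% and 7.41% of values were not whole) and tested in edgeR 4.0.16 (R 4.3.3) with TMM, filterByExpr by group and a robust 2-sided quasi-likelihood fit. Calls were made at a Benjamini-Hochberg adjusted p under 0.05 over all genes tested, and the procedure was tested on simulated data. CPM was computed from the rounded counts. A standard error was derived by dividing the size of a log2 fold change by the root of its F statistic. Levels across tables were set side by side without a test.

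The members and all 15 gene lists, on metals, glucocorticoids and cell types, were chosen with earlier results of these data known. Named genes were the members, every called Slc30a or Slc39a gene, up to 4 called genes per other list by fold change (mean of at least 5 CPM), and the 5 genes most like a member. The lists of neuroblast, oligodendrocyte, microglia, vessel, ependymal, and neural stem and progenitor markers had 4, 6, 2, 4, 2 and 9 genes tested in quiescence. Of these 1, 2, 1, 1, 0 and 2 rose and 2, 2, 0, 1, 2 and 5 fell. In the KO 4, 6, 2, 2, 2 and 9 were tested, 1, 3, 0, 1, 0 and 2 rose and 0, 0, 0, 0, 0 and 6 fell. The shares over all genes tested were 29.9% higher and 35.5% lower in quiescence, and 25.4% and 26.2% in the KO. Alternatives were RLE size factors, library size alone, DESeq2 1.42.0, limma 3.58.1 on log2(TPM + 1) or log2(TPM + 0.1), leaving low-count genes in, a floor of 1 CPM throughout a group, a joint fit of all 14 libraries, counts scaled from TPM, a replicate block and leaving out each library. Counts of the gene lists without quiescent replicate 2 or KO replicate 3 were added after seeing the data.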

Additional observations from a re-analysis of the deposited data

How the results depend on the processing

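The quiescence calls of Mt2 and Mt3 kept their direction and side of the threshold under all 18 alternatives (log2 fold change 0.73 to 1.03 and 0.10 to 0.38), and the KO call of Mt1 under all 16 (0.37 to 0.58). Use of library size alone shifted the quiescence median over all genes from -0.01 to -0.15 and the split of calls from 3664 higher and 4346 lower to 2823 and 5219. Under it Mt1 stood at 0.0278 (adjusted p = 0.641) and Slc30a1 at -0.133 in quiescence, and Slc39a1 at -0.0262. The call of Mt1 was also lost with the replicate block (0.146, adjusted p = 0.115). Same-numbered samples did not deviate together (r of -0.24, -0.35 and -0.01 in quiescence and 0.00, -0.05 and -0.01 in the KO). Quiescent replicate 2 had r = 0.51 with proliferating replicate 1 and -0.37 with replicate 5. With so few libraries these values cannot settle whether the numbers pair the samples. In the paired fit with that block Mtf1 stood at 0.0107 and Slc30a1 at -0.0235 in quiescence, and Mt2 was called in the KO (0.42, adjusted p = 0.00458). The near-zero quiescence values of Mtf1 turned positive with RLE and DESeq2 (0.0108 and 0.0114), and that of Slc30a1 turned negative without a filter (-0.00750). Measures built on TPM put Mtf1 further below 0 in quiescence, without a call. It was at -0.42 and -0.49 in the limma fits on log2(TPM + 1) and log2(TPM + 0.1) (adjusted p = 0.189 in both). With counts scaled from TPM it was at -0.43 (adjusted p = 0.247). In the KO, Mt2 passed with DESeq2 (0.43, adjusted p = 0.0117) and without a filter (0.42, adjusted p = 3.86e-05), and Mtf1 was at -0.00109 and -0.000133 in the limma fits and at -0.0163 with counts scaled from TPM. The difference of both effects passed for Mt2 with RLE (-0.59, adjusted p = 0.0313) and DESeq2 (-0.59, adjusted p = 0.0127) and for Mt3 with RLE (-0.26, adjusted p = 0.0436). With library size alone it passed for Mt1 (0.44, adjusted p = 0.00378) and was 9.87e-05 for Mt3. The cause of these changes was not tested.

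With each library left out in turn, quiescence values ranged from 0.14 to 0.30 for Mt1, from -0.0609 to 0.0930 for Mtf1 and from -0.0298 to 0.111 for Slc30a1. KO values ranged from 0.21 to 0.56 for Mt2, from 0.10 to 0.20 for Mt3, from 0.0387 to 0.197 for Mtf1 (lowest without GFP replicate 3) and from 0.10 to 0.24 for Slc30a1. The difference ranged from 0.16 to 0.36 for Mt1, from -0.70 to -0.36 for Mt2, from -0.22 to -0.10 for Mt3, from 0.0253 to 0.215 for Mtf1 and from 0.0511 to 0.191 for Slc30a1. Its adjusted p fell under 0.05 for Mt2 without KO replicate 3 (0.00276) or quiescent replicate 2 (0.0193), for Mt3 without quiescent replicate 2 (0.0249), and for Mt1 without quiescent replicate 1 (0.0415), KO replicate 1 (0.0406) or KO replicate 2 (0.0289). Of 772 values of 43 other named genes in quiescence 729 kept call and direction, 42 lost the call and 1 reversed, and of 512 values of 32 such genes in the KO 491 kept both and 21 lost the call. Depth limits precision most for Mtf1 and Slc30a1 in quiescence (84 to 170 estimated counts per library). In the GFP libraries Mt2 had 229 to 301 counts per library, fewer in sum than any other member. It also had the largest standard error of the members in the KO comparison (0.17), which was 0.09 without KO replicate 3. The part of depth in that standard error was not tested.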
